A study of Mus musculus with 6 samples.

Results

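Genes of TGF-beta, activin and BMP signalling were compared between islet cells sorted at postnatal day 1 (P1) by a lineage reporter of Wnt4. The 53 genes were taken by name, as ligands, inhibin and activin subunits, receptors, antagonists, latent TGF-beta binding proteins, Smads, Smad regulators and Id targets, and 76 of the 56605 probes of the array carry one of them, so that they form 53 of 45616 measured features. The cells came from Wnt4eGFPCre; mTmG pups at P1, crossed to C57BL/6J and given no treatment. In these pups Cre made under the control of Wnt4 switches a membrane reporter from tomato to GFP for good, so that mGFP+ cells (Wnt4hi) are cells that have expressed Wnt4 since late gestation and mGFP- cells (Wnt4low) are cells in which the reporter had not been switched. Both populations carried both alleles and were sorted by FACS from dissociated islets on the reporter, with the islets of 3 or 4 pups pooled for each sample. There were 3 Wnt4hi samples (replicates 2, 3 and 4) and 3 Wnt4low samples (replicates 1, 3 and 4), each on 1 single-colour array, and the labels do not say whether samples of the same number came from the same pups. Small amounts of RNA were amplified before labelling, and each array read 59305 spots that are not controls.

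Ligands of this family are secreted dimers that bring type I and type II receptor kinases together. The type I receptor then phosphorylates a Smad, SMAD2 or SMAD3 after TGF-beta and activin and SMAD1, SMAD5 or SMAD9 after BMP, which joins SMAD4 and enters the nucleus. TGF-beta is held in the matrix by latent binding proteins, and secreted antagonists bind ligands before they reach a receptor. In the pancreas the pathway is known for its parts in endocrine differentiation, in beta cell identity and in the stroma and vessels around islets.

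More of these genes were higher in Wnt4low than in Wnt4hi. Levels are log2 intensities after background correction and normalization, and differences are Wnt4hi minus Wnt4low on that scale, so that a negative value is a higher level in Wnt4low. At an unadjusted limma p under 0.05, the threshold of the study, 17 of 53 genes (32.1%) were higher in Wnt4low, against 5.53% of all features, and 2 (3.77%) were higher in Wnt4hi, against 5.06% of all features, while 34 passed in neither direction. Among features with a gene symbol, as all 53 have, the shares were 7.79% and 5.76%. The 17 were Tgfb2, Gdf10, Gdf15, Inhba, Acvrl1, Tgfbr2, Bmpr2, Tgfbr3, Fstl1, Ltbp1, Ltbp4, Smad3, Smad7, Ski, Smurf1, Id1 and Id3, and the 2 were Inha and Smad9. After Benjamini-Hochberg adjustment over all features (adjusted p under 0.05) only Inhba passed, 1 of 53 and on the Wnt4low side, against 0.441% of all features (0.406% higher in Wnt4low and 0.0351% higher in Wnt4hi). Leaving out any of the 6 arrays left 0 of the 53 genes, and 0 to 9 of all 45616 features, against 201 features with all 6 arrays. All 3 arrays of one population lay above all 3 of the other for 19 genes higher in Wnt4low and 3 higher in Wnt4hi, against 6.44% and 9.63% of all features. The median difference of the 53 genes was -0.44, against 0.073 over all features, and it was -0.26 without Wnt4low replicate 4. A spot is well above background where the scanner software called it so. By that call 49 genes were measured on all 3 arrays of at least 1 population, and Smad9 was dim on all 6 arrays, so that it has no level here.

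**Figure D1:**
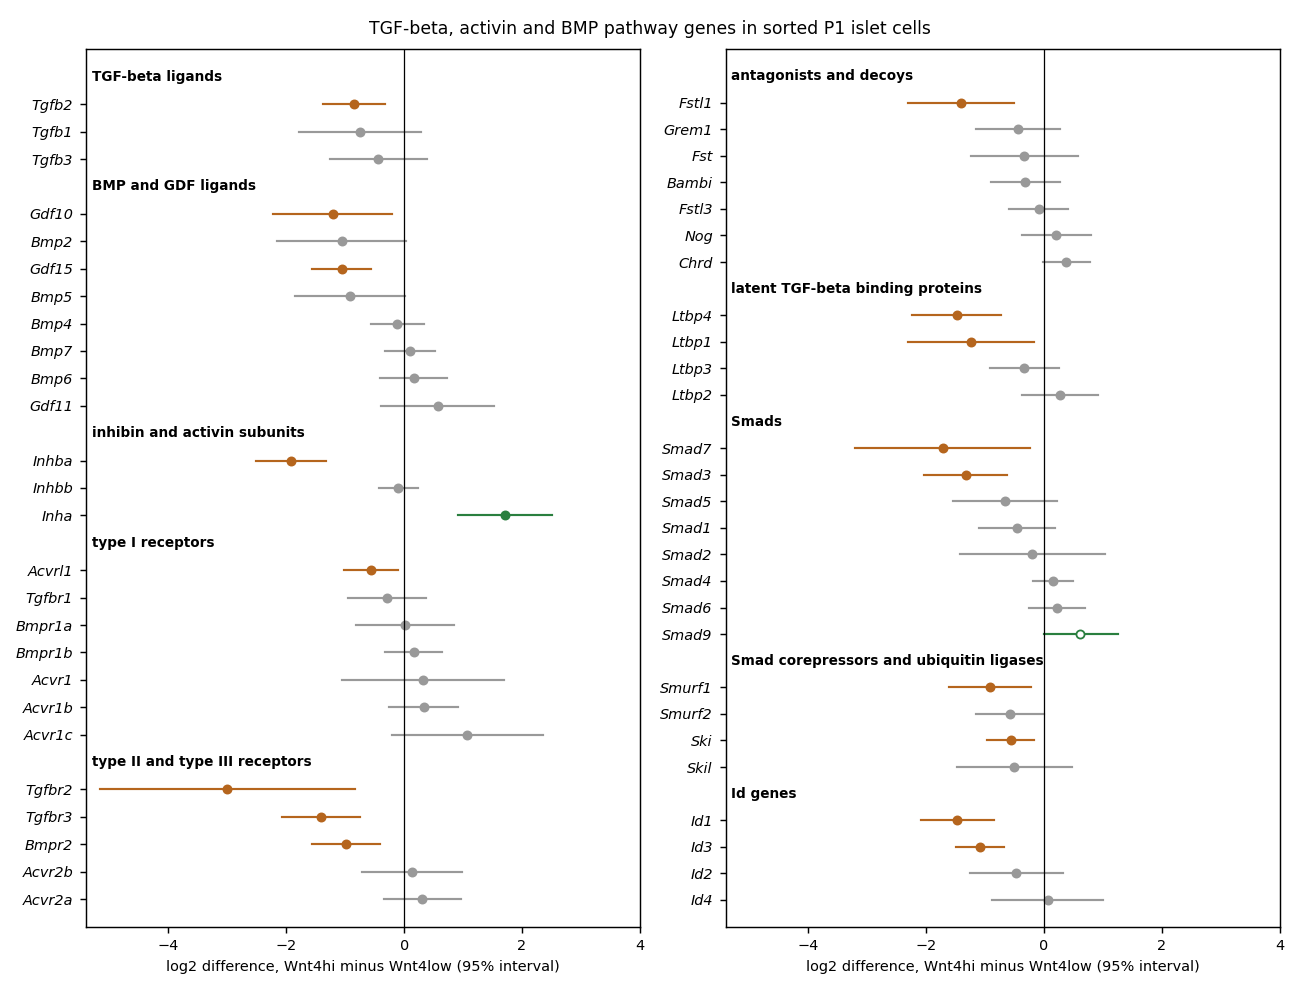
Log2 difference between Wnt4hi and Wnt4low for each of the 53 genes (point) with its 95% interval from limma (line), grouped by role and ordered within each role, with 3 arrays per population. Brown marks the 17 genes higher in Wnt4low and green the 2 higher in Wnt4hi at an unadjusted p under 0.05, grey the other 34, and the open point is Smad9, which was dim on all 6 arrays.

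Markers of other cell types moved with the populations. Wnt4 itself, the sorted locus, read 11.20, 10.53 and 10.77 in Wnt4hi and 9.85, 10.10 and 9.31 in Wnt4low, a difference of 1.08 (SE 0.27, adjusted p = 0.210), past the unadjusted threshold with no overlap. It was well above background on all 3 Wnt4low arrays too, at a level 2.11-fold below that of Wnt4hi. Of 10 beta cell markers 9 were higher in Wnt4hi, 7 of them at p under 0.05, and their summed intensity was 327000 to 336000 in Wnt4hi and 191000 to 292000 in Wnt4low. Of 12 endothelial markers all 12 were higher in Wnt4low, 11 of them at p under 0.05, and their sums of 35400 to 69100 in Wnt4low were on average 7.36 times those of 5370 to 8010 in Wnt4hi, where the defining markers Tie1 and Tek were not well above background. The 12 markers of fibroblasts, stellate cells and pericytes summed to 89000 to 117000 in Wnt4low and to 42800 to 72000 in Wnt4hi, with 11 of 12 higher in Wnt4low and 8 at p under 0.05. Leukocyte markers summed to 23300 to 27200 in Wnt4low and 11900 to 19200 in Wnt4hi, with 5 of 12 higher in Wnt4low at p under 0.05. Acinar markers were uneven within Wnt4low (7190 to 31500, against 7600 to 11200 in Wnt4hi, with Pnlip dim in both), and those of Schwann and neural crest cells were 4470 to 4990 in Wnt4hi and 5130 to 6250 in Wnt4low. The 9 ductal markers were split, with 2 higher in Wnt4hi and 1, Spp1 (-2.16, adjusted p = 0.184), higher in Wnt4low at p under 0.05. Their sum, 27500 to 37000 in Wnt4hi and 18500 to 23900 in Wnt4low, is weighted to the brightest probes, and Cftr was not well above background in Wnt4hi. The 9 markers of alpha, delta, PP and epsilon cells summed to 124000 to 187000 in Wnt4hi and 70000 to 104000 in Wnt4low, with 4 higher in Wnt4hi at p under 0.05. The delta cell markers Sst (-0.56, adjusted p = 0.356) and Hhex (-1.75, adjusted p = 0.0920) were the 2 higher in Wnt4low, and they and Spp1 were named after their values were seen. In sorted bulk cells, fewer cells of a type and less RNA per cell cannot be told apart, and the part of these cells in the differences described next was not tested.

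**Figure D2:**
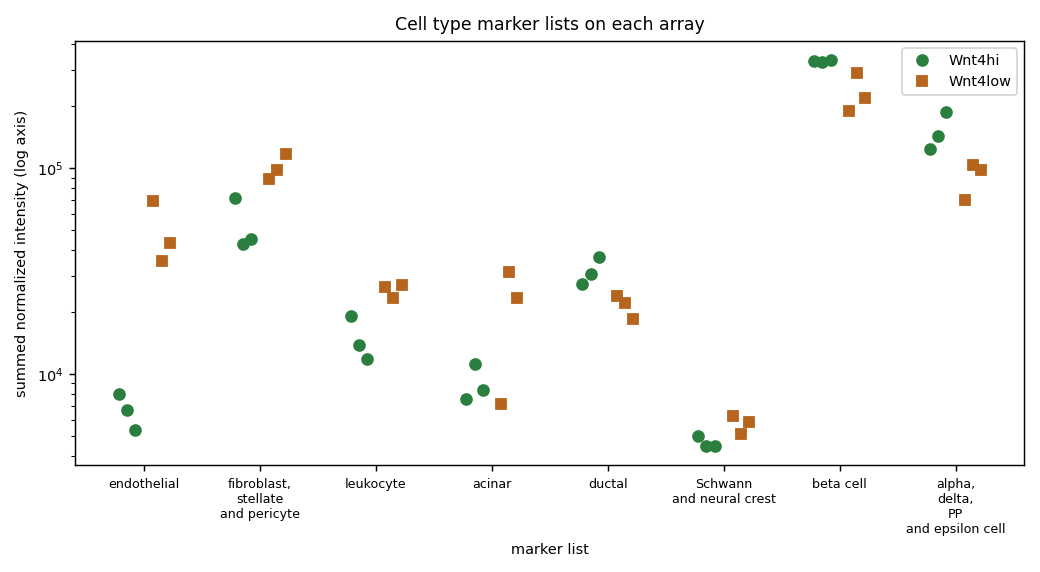
Summed normalized intensity (linear values on a log axis) of 8 lists of cell type markers on each of the 3 Wnt4hi arrays (green circles) and 3 Wnt4low arrays (brown squares), each point 1 array in the order of its replicate number. The Wnt4low arrays lie above the Wnt4hi arrays for the endothelial, stromal, leukocyte and Schwann lists, and below them for the beta cell, other endocrine and ductal lists.

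Of the 3 inhibin and activin subunits, 1 was higher in Wnt4low and 1 in Wnt4hi. Inhba encodes the beta A subunit, which as a homodimer forms activin A. It read 8.38, 7.70 and 8.30 on the Wnt4hi arrays and 10.16, 9.72 and 10.25 on the Wnt4low arrays. All 3 Wnt4low arrays were above all Wnt4hi arrays, with a 3.78-fold higher level (log2 difference -1.92, SE 0.25, limma adjusted p = 0.0491). The adjusted p ranged from 0.0233 to 0.316 over 17 alternative settings, in each of which the unadjusted threshold was still passed. Inha encodes the alpha subunit, which joins a beta subunit to form inhibin, an antagonist of activin. It read 9.32, 9.28 and 9.83 in Wnt4hi and 7.13, 8.27 and 7.88 in Wnt4low. Here the Wnt4hi arrays were all higher, by 1.71 (SE 0.32, 3.28-fold, adjusted p = 0.114), and 2 of the 3 Wnt4low arrays were well above background. Inhbb, the beta B subunit of activin B, read 10.59, 10.76 and 10.71 in Wnt4hi and 10.75, 10.94 and 10.65 in Wnt4low. Its values overlapped, and the difference of -0.097 had a 95% interval from -0.43 to 0.24 (adjusted p = 0.877).

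The sequence just upstream of the start was examined because SMAD3 and SMAD4 are known to bind CAGAC and BMP Smads GGCGCC. RefSeq promoter windows (GRCm38.p6) were held for 40 of the 53 genes, and for 24 of them the window precedes the outermost start that RefSeq lists for the gene. Only such windows were counted, over the 250 bases before the start and on both strands, since a window before an inner start can hold exons of the gene. CAGAC or its reverse complement GTCTG occurred in 9 of 24 (37.5%) and in 42.1% of 19827 such windows of all genes, and GGCGCC, its own reverse complement, in 6 of 24 (25%) and in 7.74%. The 6 genes with GGCGCC were Bmpr2, Grem1, Id2, Id4, Ski and Tgfbr1, of which Bmpr2 and Ski were higher in Wnt4low at p under 0.05 and the others did not pass. GGCGCC holds only G and C, the base content of the windows was not compared, and no enrichment was tested. Both motifs are short, and matches of both can fall in 1 promoter and share a base at their ends. The windows of Inhba, the gene with the lowest p, and of Id3, the Id gene with the lowest p, are shown as plus strand bases with CAGAC or GTCTG in capitals. They lie at chr13:16011601-16011850 and chr4:136143572-136143821. The Id3 window precedes the outermost start, while that of Inhba precedes an inner start, 7595 bases inside the annotated gene, and was not counted.
Inhba: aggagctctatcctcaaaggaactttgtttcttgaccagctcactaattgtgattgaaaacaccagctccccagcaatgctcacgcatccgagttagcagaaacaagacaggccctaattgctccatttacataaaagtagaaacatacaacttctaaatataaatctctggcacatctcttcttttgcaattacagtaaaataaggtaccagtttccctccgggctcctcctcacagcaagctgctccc
Id3: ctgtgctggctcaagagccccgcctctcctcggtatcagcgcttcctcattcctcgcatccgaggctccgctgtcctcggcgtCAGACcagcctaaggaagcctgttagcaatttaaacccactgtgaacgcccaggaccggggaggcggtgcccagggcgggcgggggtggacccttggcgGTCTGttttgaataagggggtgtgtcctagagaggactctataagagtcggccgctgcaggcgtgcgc
The motif occurred 0 times in the Inhba window and 2 times in that of Id3. A match is a description of letters and not of a bound site.

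Among the TGF-beta ligands, Tgfb2 was higher in Wnt4low. It read 10.51, 10.25 and 10.70 in Wnt4hi and 11.02, 11.31 and 11.68 in Wnt4low. The populations did not overlap, and the level was 1.80-fold higher in Wnt4low (-0.85, SE 0.22, adjusted p = 0.218), whereas a dimmer probe of Tgfb2 gave -0.63 and missed the unadjusted threshold (adjusted p = 0.552). Tgfb1 read 8.17, 7.89 and 7.64 in Wnt4hi, where 2 arrays were well above background, and 9.59, 8.39 and 7.97 in Wnt4low. Wnt4low replicate 4 lay within the range of Wnt4hi, and the difference of -0.75 (SE 0.43) did not pass (adjusted p = 0.646). It was -0.28 without Wnt4low replicate 1, the highest array, and -1.10, past the unadjusted threshold, without Wnt4low replicate 4. Tgfb3 read 10.61, 9.30 and 9.64 in Wnt4hi and 10.26, 10.40 and 10.21 in Wnt4low. Wnt4hi replicate 2 was the highest of all 6 arrays, and the difference was -0.44 (SE 0.34, adjusted p = 0.755). Without that array it was -0.81 and passed the unadjusted threshold, and over all alternatives the adjusted p ranged from 0.0622 to 0.972.

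Of the 8 BMP and GDF ligands, 2 were higher in Wnt4low and 0 in Wnt4hi. Gdf15, a distant family member made under cellular stress, read 8.67, 8.99 and 9.12 in Wnt4hi and 9.85, 10.31 and 9.80 in Wnt4low. Every Wnt4low array was above every Wnt4hi array (2.09-fold, -1.06, SE 0.20, adjusted p = 0.117). Gdf10, also called Bmp3b, read 9.95, 8.43 and 9.25 in Wnt4hi and 10.89, 10.24 and 10.13 in Wnt4low. The populations were apart (2.31-fold, -1.21, SE 0.42, adjusted p = 0.370), but the unadjusted call was lost without Wnt4hi replicate 3 (-0.83), without Wnt4hi replicate 4 (-1.23) or without Wnt4low replicate 1 (-0.97). Bmp5 read 7.90, 7.93 and 7.86 in Wnt4hi and 8.40, 8.33 and 9.72 in Wnt4low. Its difference of -0.92 (SE 0.38) missed the unadjusted threshold (adjusted p = 0.479) although the arrays did not overlap, and passed it in 13 of 17 alternatives. The size rests on Wnt4low replicate 4, without which it was -0.47, past the unadjusted threshold. A second probe of Bmp5 was well above background on 3 Wnt4low arrays and 0 Wnt4hi arrays, and its difference, for which no size is given, passed the adjusted threshold (adjusted p = 0.0314). Bmp2 was -1.06 (SE 0.45, adjusted p = 0.492) with 2 Wnt4hi arrays well above background, and 7 of 17 alternatives took it past the threshold. It was -0.59 without Wnt4low replicate 1, which did not pass, and -1.52 without Wnt4low replicate 3, which did. Bmp4, Bmp6 and Gdf11 differed by -0.12, 0.16 and 0.57, each with an interval that includes 0. A second probe of Bmp4, well above background on all 6 arrays, gave -0.88 and just missed the unadjusted threshold (adjusted p = 0.456), and the mean of both probes was -0.50. Bmp7 (0.094) was well above background on 1 array of each population.

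Of 7 type I receptors, 1 was higher in Wnt4low. Acvrl1 encodes ALK1, a receptor for BMP9 and TGF-beta known from endothelial cells. It read 10.45, 10.15 and 10.34 in Wnt4hi and 11.12, 10.94 and 10.57 in Wnt4low. The arrays were apart by a small margin (1.48-fold, -0.56, SE 0.19, adjusted p = 0.352), and among fits that left out 1 array the unadjusted call was lost without Wnt4hi replicate 3 (-0.48) or 4 (-0.57) and without Wnt4low replicate 1 (-0.44) or 3 (-0.53). The call was also lost in a fit that took the replicate number as a block (-0.51). A second probe for another transcript of Acvrl1, well above background on all 6 arrays, differed far more, by -3.38 (adjusted p = 0.0200). Acvr1c, the activin and NODAL receptor ALK7, read 8.70, 8.62 and 8.64 in Wnt4hi and 6.69, 8.82 and 7.25 in Wnt4low. The 3 Wnt4hi arrays were nearly equal, 2 of the Wnt4low arrays were dim, and Wnt4low replicate 3 was the highest of all. The difference was 1.07 (SE 0.53, adjusted p = 0.569). Without Wnt4low replicate 3 it passed the unadjusted threshold, at a level at least 2.43-fold higher in Wnt4hi by the bound against the dimmest measured level, and the adjusted p ranged from 0.0877 to 0.874 over the alternatives. Acvr1b, the activin receptor ALK4, read 10.44, 10.88 and 10 in Wnt4hi and 10.15, 10.21 and 9.97 in Wnt4low. These values overlapped, and the difference of 0.33 had an interval from -0.26 to 0.92. The TGF-beta receptor Tgfbr1 (-0.29) and the BMP receptors Acvr1 (0.32), Bmpr1a (0.013) and Bmpr1b (0.16) did not pass either, and the second probes of Acvr1 (-0.14) and Bmpr1a (-0.62) had the opposite sign.

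Among 5 type II and type III receptors, 3 were higher in Wnt4low. Tgfbr2, the type II receptor that binds TGF-beta, read 9.97, 7.12 and 6.65 in Wnt4hi and 11.11, 10.22 and 11.40 in Wnt4low. Only Wnt4hi replicate 2 was well above background in its population, and it came close to Wnt4low replicate 3 without passing it. The fitted difference of -3.00 (SE 0.89, adjusted p = 0.291, interval from -5.16 to -0.83) rests on 2 Wnt4hi arrays with no measured level, so its size is given as a bound. With those 2 arrays raised to the dimmest level that counts as measured, where that was higher, Tgfbr2 was at least 6.37-fold higher in Wnt4low, and at least 11.6-fold without Wnt4hi replicate 2. The fit just missed the unadjusted threshold without Wnt4low replicate 4. Wnt4hi replicate 2 also had the highest endothelial sum of its population (8010, against 6720 and 5370) and the highest stromal sum (72000, against 42800 and 45100). In Wnt4low the endothelial sum was highest on replicate 1 (69100, against 35400 and 43300), whereas Tgfbr2 and the stromal sum (117000, against 89000 and 97900) were highest on replicate 4. Tgfbr3, betaglycan, a co-receptor that presents TGF-beta2 and is needed for inhibin to block activin, read 9.78, 10.44 and 10.47 in Wnt4hi and 11.23, 11.89 and 11.82 in Wnt4low. The 2 populations were apart on every array, with a 2.66-fold higher level in Wnt4low (-1.41, SE 0.27, adjusted p = 0.118). Bmpr2, the type II receptor for BMPs, read 11.15, 11.06 and 11.63 in Wnt4hi and 12.15, 12.01 and 12.64 in Wnt4low. It was 1.98-fold higher in Wnt4low with no overlap (-0.99, SE 0.24, adjusted p = 0.195), while in the table that the authors normalized it differed by -0.03 and did not pass. The column of Wnt4hi replicate 2 in that table may hold another sample, as described at the end. The activin type II receptors Acvr2a (0.31) and Acvr2b (0.14) did not pass, and a second probe of Acvr2b gave 1.56 (adjusted p = 0.482).

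**Figure D3:**
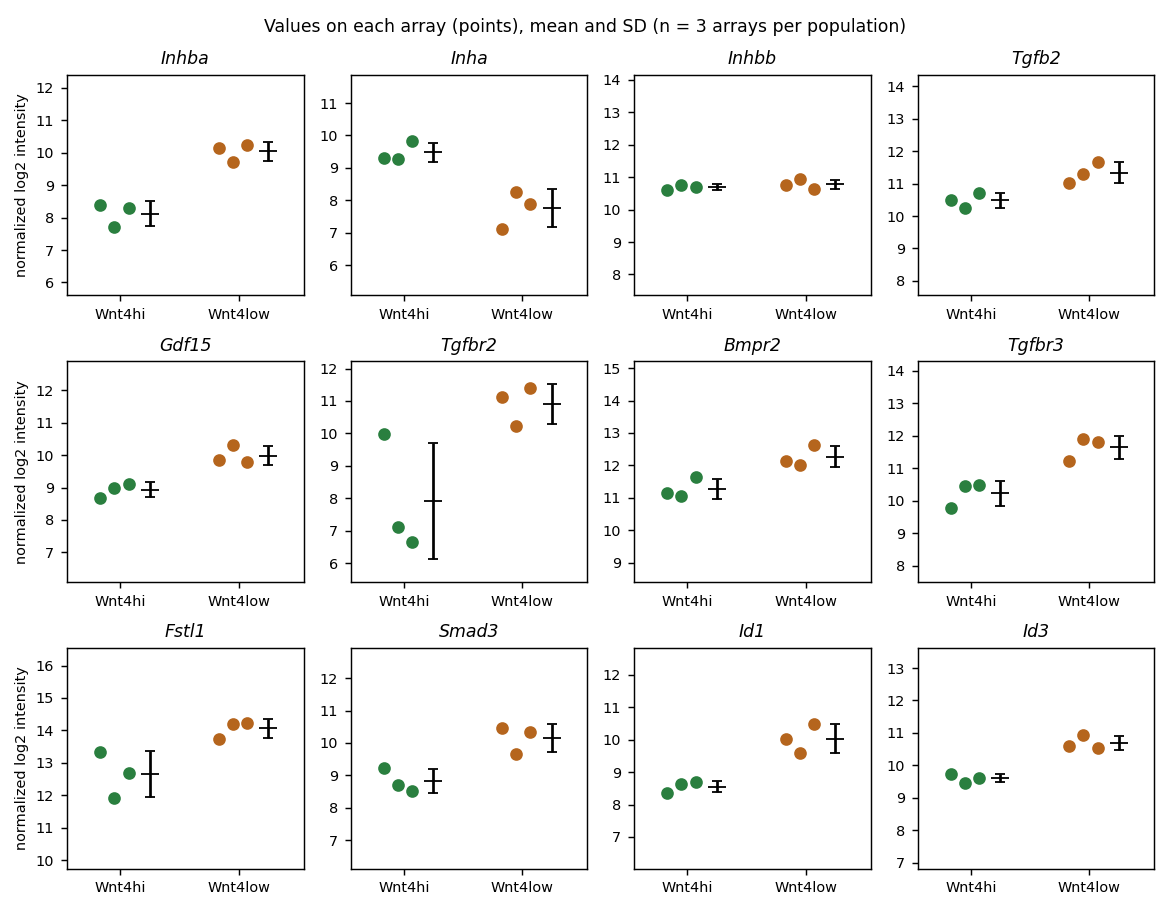
Normalized log2 intensity of 12 genes on each array (points, in the order of the replicate number) with the mean and SD of 3 arrays beside them, Wnt4hi in green and Wnt4low in brown, all panels spanning the same range on the log2 axis. Inha is the gene whose Wnt4hi arrays are all higher, Inhbb overlaps, and the other 10 are higher on all Wnt4low arrays, with the widest spread for Tgfbr2 in Wnt4hi.

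Antagonists and decoys held 1 gene that was higher in Wnt4low. Fstl1, a secreted glycoprotein made by mesenchyme that modulates BMP signalling, read 13.34, 11.92 and 12.70 in Wnt4hi and 13.73, 14.21 and 14.24 in Wnt4low. The populations were apart (2.65-fold, -1.41, SE 0.37, adjusted p = 0.232), and a second probe gave -1.63 (adjusted p = 0.272). The 3 Wnt4hi arrays followed the same order in Fstl1 as in the stromal marker sum, replicate 2 highest and replicate 3 lowest. Other genes higher in Wnt4low had another order, such as Tgfbr3, lowest on Wnt4hi replicate 2 (9.78), and Smad7, highest on Wnt4hi replicate 4 (9.24). A link between these levels and the marker sums was not tested. Chrd encodes chordin, which binds BMPs, and read 11.00, 10.80 and 10.77 in Wnt4hi and 10.50, 10.67 and 10.24 in Wnt4low. All Wnt4hi arrays were higher by a small margin, and the difference of 0.38 (SE 0.16) missed the unadjusted threshold (adjusted p = 0.490). Bambi, a receptor-like decoy without a kinase, read 10.47, 10.66 and 10.50 in Wnt4hi and 11.35, 10.49 and 10.74 in Wnt4low. The values overlapped, with a difference of -0.32 (SE 0.24, adjusted p = 0.747). Follistatin (Fst), the main binder of activin, and the BMP antagonist Grem1 were not well above background on any Wnt4hi array and were so on 1 Wnt4low array each, so that no fold is given. The activin binder Fstl3 (-0.091, interval -0.59 to 0.40) and the BMP antagonist Nog (0.21, interval -0.38 to 0.80) did not pass.

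Of the 4 latent TGF-beta binding proteins, which tether the latent ligand to the matrix, 2 were higher in Wnt4low. Ltbp4 read 10.91, 10.45 and 9.98 in Wnt4hi and 12.39, 11.68 and 11.71 in Wnt4low. No array overlapped (2.79-fold, -1.48, SE 0.31, adjusted p = 0.142), and a second probe gave -1.47 (adjusted p = 0.198). Ltbp1 read 10.64, 9.20 and 9.24 in Wnt4hi and 10.65, 10.74 and 11.37 in Wnt4low. Wnt4hi replicate 2 was nearly level with the lowest Wnt4low array, and the difference of -1.23 (2.34-fold, SE 0.44, adjusted p = 0.395) lost its unadjusted call without Wnt4hi replicate 3 or 4 and without Wnt4low replicate 3 or 4, where it was -1.32 to -0.99. Ltbp3 read 10.91, 11.43 and 10.84 in Wnt4hi and 11.12, 11.32 and 11.73 in Wnt4low. It overlapped (-0.33, SE 0.24, adjusted p = 0.732), as did Ltbp2 (0.27, interval -0.38 to 0.91), which does not bind latent TGF-beta in the way the others do.

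Of 8 Smads, Smad3 and Smad7 were higher in Wnt4low. Smad3, a transducer of TGF-beta and activin, read 9.23, 8.70 and 8.52 in Wnt4hi and 10.46, 9.65 and 10.35 in Wnt4low. The populations were apart, with a 2.52-fold higher level in Wnt4low (-1.33, SE 0.29, adjusted p = 0.156), and a second probe gave -1.03 and passed the unadjusted threshold too (adjusted p = 0.416). Smad7, an inhibitory Smad that is itself induced by the pathway, read 7.19, 6.90 and 9.24 in Wnt4hi and 9.38, 9.34 and 9.77 in Wnt4low. Wnt4hi replicate 4 was well above background and close to the Wnt4low arrays, and the other two Wnt4hi arrays were dim. The fitted difference of -1.72 (SE 0.61, adjusted p = 0.390) rests in part on those dim arrays, and by the same bound Smad7 was at least 3.09-fold higher in Wnt4low. It kept its unadjusted call without Wnt4hi replicate 4 (at least 4.97-fold) and lost it without any one of the other 5 arrays, where the fitted difference was -1.80 to -1.28. A dimmer probe of Smad7, not well above background on any Wnt4hi array, did not pass (adjusted p = 0.680). Smad5, a transducer of BMP signals, read 11.77, 10.38 and 11.18 in Wnt4hi and 11.45, 11.93 and 11.93 in Wnt4low. It overlapped through Wnt4hi replicate 2 (-0.66, SE 0.37, adjusted p = 0.634). It was -0.99 without that array, past the unadjusted threshold, and -0.30 without Wnt4hi replicate 3, and a second probe gave -1.38 and passed the unadjusted threshold (adjusted p = 0.452). Smad2, the other transducer of TGF-beta and activin, differed by -0.20 (interval -1.43 to 1.03), while its second probe gave -0.83 and passed the unadjusted threshold (adjusted p = 0.129). Smad1 (-0.46), the shared partner Smad4 (0.16) and the inhibitory Smad6 (0.22) did not pass, although the Wnt4hi arrays of Smad4 were all higher, and 1 of the 3 other Smad4 probes had the opposite sign. Smad9 was 1 of the 2 genes past the unadjusted threshold in favour of Wnt4hi (adjusted p = 0.472), but no array measured it above background.

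All 4 corepressors and ubiquitin ligases had negative differences, and 2 passed. Ski, which binds Smads and represses their targets, read 10.90, 10.65 and 10.71 in Wnt4hi and 11.50, 11.36 and 11.08 in Wnt4low. The arrays did not overlap (1.48-fold, -0.56, SE 0.16, adjusted p = 0.277), and in the authors' table the difference was -0.36 and did not pass. With the replicate number as a block Ski was at -0.54 and did not pass either. Smurf1, a ligase that targets BMP Smads and receptors for degradation, read 10.14, 11.21 and 10.39 in Wnt4hi and 11.44, 11.59 and 11.45 in Wnt4low. The populations were apart (1.89-fold, -0.92, SE 0.29, adjusted p = 0.319), and the unadjusted call was lost, among other settings, without Wnt4hi replicate 4 (-0.82), without Wnt4low replicate 3 (-0.86) and in the authors' table (-0.54). Smurf2, a related ligase, read 10.92, 10.86 and 11.38 in Wnt4hi and 11.45, 11.41 and 12.03 in Wnt4low. The Wnt4low arrays were all higher, the difference of -0.58 (SE 0.24) just missed the unadjusted threshold (adjusted p = 0.474), and a second probe gave -1.13 and passed it (adjusted p = 0.309). Skil, or SnoN, differed by -0.50 (interval -1.48 to 0.48).

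The Id genes encode inhibitors of basic helix-loop-helix factors and are classic targets of BMP signals, and Id1 and Id3 passed the unadjusted threshold while Id2 and Id4 did not. Id1 read 8.35, 8.62 and 8.70 in Wnt4hi and 10.02, 9.58 and 10.49 in Wnt4low. All Wnt4low arrays were above all Wnt4hi arrays, 2.77-fold on average (-1.47, SE 0.25, adjusted p = 0.0920). Id3, whose promoter is shown with the window of Inhba, read 9.74, 9.47 and 9.62 in Wnt4hi and 10.60, 10.95 and 10.53 in Wnt4low. The spread within each population was small beside the gap, with a 2.12-fold higher level in Wnt4low (-1.09, SE 0.17, adjusted p = 0.0702). Over the alternatives the adjusted p of Id1 ranged from 0.0497 to 0.241 and that of Id3 from 0.0303 to 0.212. Id2 read 8.87, 7.86 and 8.49 in Wnt4hi and 8.47, 8.87 and 9.29 in Wnt4low. Its values overlapped (-0.47, SE 0.32, interval -1.26 to 0.32, adjusted p = 0.720). In a fit that took the replicate number as a block Id2 was at -0.90 and passed the unadjusted threshold. Id4 read 8.96, 8.42 and 8.77 in Wnt4hi and 8.15, 8.28 and 9.52 in Wnt4low. It differed by 0.065 (interval -0.88 to 1.01, adjusted p = 0.976), with Wnt4low replicate 4 as the highest array. Whether Id1 and Id3 differed more than Id2 and Id4 was not tested.

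Across arrays the 53 genes leaned the same way on each array of a population. The median deviation of the 53 genes from their own means was -0.10, -0.30 and -0.21 on Wnt4hi replicates 2, 3 and 4 and 0.19, 0.22 and 0.34 on Wnt4low replicates 1, 3 and 4. In 6 of 10 roles (TGF-beta ligands, BMP and GDF ligands, type II and type III receptors, latent binding proteins, corepressors and ligases, and Id genes) the median was below 0 on every Wnt4hi array and above 0 on every Wnt4low array. By contrast, type I receptors were at -0.42 on Wnt4low replicate 1 and at 0.23 and 0.22 on the other two Wnt4low arrays. The Smads were at 0.08 on Wnt4hi replicate 2, near those of Wnt4low replicate 1 (0.14) and replicate 3 (-0.04).

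**Figure D4:**
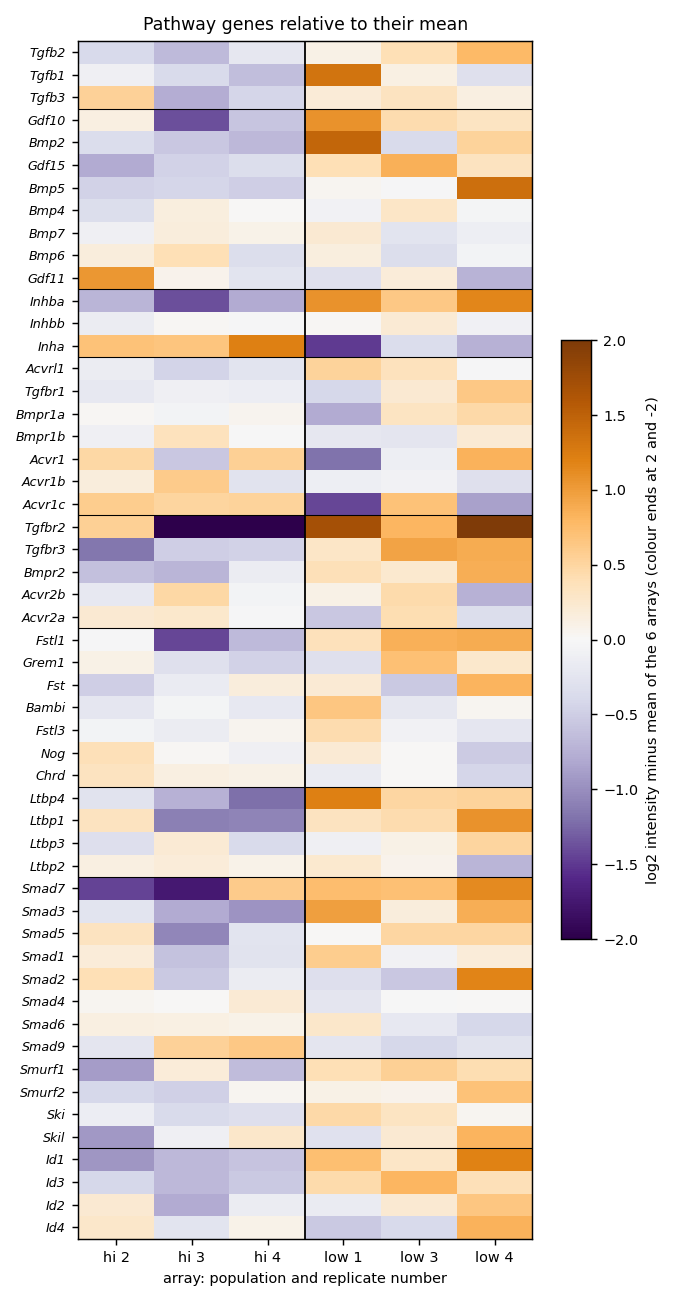
Each of the 53 genes (rows, in order of role) on each of the 6 arrays (columns, named by population and replicate number) as log2 intensity minus the mean of the 6 arrays, brown above and purple below the mean, with colours ending at 2 and -2. Tgfbr2 and Smad7 are low on 2 of 3 Wnt4hi arrays, Inha is the row with the largest positive difference (1.71), and Wnt4hi replicate 2 is above the mean for Tgfb3, Gdf10, Tgfbr2 and Ltbp1, unlike Wnt4hi replicates 3 and 4.

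Of 71 other genes of the pathway, listed by role, 19 (26.8%) were higher in Wnt4low at an unadjusted p under 0.05, against 5.53% of all features and 7.79% of those with a gene symbol. On the Wnt4hi side there were 3 (4.23%), a share near the 5.06% of all features, while 49 passed in neither direction, and 2 passed after adjustment. Ccn2, the connective tissue growth factor, read 10.16, 9.53 and 10.42 in Wnt4hi and 12.43, 11.90 and 12.49 in Wnt4low (-2.24, SE 0.28, adjusted p = 0.0491). The populations did not overlap in Ccn2, and 4 of the 10 target genes, Ccn2 among them, were higher in Wnt4low and 0 in Wnt4hi. Of 19 secreted antagonists and matrix regulators, 9 were higher in Wnt4low and 1 in Wnt4hi, with the lowest p for Nrros (-1.34, adjusted p = 0.0527), which anchors latent TGF-beta on macrophages and microglia, and for the matrix proteoglycan Bgn (-1.97, adjusted p = 0.0748). Of 7 receptors and co-receptors, 3 were higher in Wnt4low. Cd109, a TGF-beta co-receptor, was not well above background on any Wnt4hi array and was at least 4.22-fold higher in Wnt4low (adjusted p = 0.0945), computed against the dimmest level that counts as measured, and Rgma, a BMP co-receptor, differed by -0.80 (adjusted p = 0.370), while its second probe, well above background on all 6 arrays, gave -2.03 (adjusted p = 0.0949). Among 16 genes listed as intracellular regulators, 3 were higher in Wnt4low, led by the corepressor Tgif1 (-1.04, adjusted p = 0.0780), whose second probe gave -0.86 and did not pass (adjusted p = 0.680), and by Vasn (-1.30, adjusted p = 0.0952), which binds TGF-beta at the cell surface and does not belong to that role, and 1 was higher in Wnt4hi. Of the 19 other ligands 0 were higher in Wnt4low and 1, Bmp1, a protease that frees BMPs from chordin, was higher in Wnt4hi (0.45, adjusted p = 0.419). The next lowest p was that of Nodal (-0.33, adjusted p = 0.630), and the other two probes of Bmp1 gave -0.16 and -0.20.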

How the data were processed

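The 6 arrays hold P1 islet cells sorted as Wnt4hi or Wnt4low, grouped by the sample labels. The authors deposited scanner output with spot and local background intensity (Cy5), not normalized, made with Agilent Feature Extraction (version 9.1 in the submitters' processing notes, 12.0.1.1 in the file headers), and the scanner's own processed intensity. A log2 table that the authors had normalized themselves was deposited too and served as an alternative. After the study's methods, the median intensity of each spot was corrected with normexp (offset 50) and normalized by quantiles over spots that are not controls in limma (version 3.58.1, R 4.3.3). Outlier spots (50 to 141 per array) were dropped, spots of 1 probe averaged, and no spot was saturated. Of 27845 RefSeq names 25126 matched RefSeq genes (GRCm38.p6), and the probe with the highest mean stood for a gene (20 of the 53 genes have more than 1 probe). The populations were compared with lmFit and eBayes without covariates over 45616 features, with Benjamini-Hochberg adjustment, and the calculation was tested on simulated data. Intervals cover 95%.

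In each role the 3 genes with the lowest p among those measured on all 3 arrays of a population, and all 4 Id genes, are given array by array. Of other pathway genes those past the adjusted threshold and the 2 lowest p of each role are named, apart from 1 gene that is counted but not reported here. The 53 genes and all lists were chosen with earlier results of these data known, so their counts are descriptions and no list was tested. Each sample is a pool of pups, and 3 against 3 arrays limit the precision. Of the spots, 70.5% to 79.5% were well above background, at a median signal of 10.8 to 15.6 times the local background. All arrays lay on 1 slide and 1 scan, so that there was no batch of slide or scan to test. Whether the samples differed by batches of islet isolation, sorting or RNA amplification was not tested. Only the numbers 3 and 4 are shared by the populations, so the numbers were not used as pairs. Alternatives changed the background correction, normalization, filter on dim probes, outlier spots, choice of probe, variance model, values (the authors' table) and replicate block, or left out each array in turn.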

Additional observations from a re-analysis of the deposited data

How the results depend on the processing

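Over 17 alternative settings, 10 of the 19 calls kept their direction and an unadjusted p under 0.05 in every setting that measured the gene (Tgfb2, Gdf15, Inha, Inhba, Tgfbr3, Fstl1, Ltbp4, Smad3, Id1 and Id3), and none of the 19 turned sign. The number of genes higher in Wnt4low was 17 to 20 without leaving out an array and 13 to 19 leaving one out (13 without Wnt4hi replicate 3), and that of the other pathway genes 17 to 21 and 14 to 19. The number higher in Wnt4hi was 1 in place of 2 with the processed signal, median centring, cyclic loess or the filter on dim probes, where Smad9 was lost, and 1 to 4 leaving out an array (4 without Wnt4low replicate 3). The number past the adjusted p was 2 with the filter on dim probes (Id1 and Inhba, among 49 genes), where 508 of 31996 features passed. It was 2 with the mean of all probes (Acvrl1 and Inhba), where 258 of 45616 features passed. In the authors' table it was 3 (Acvrl1, Id3 and Tgfbr2, among 46 genes), where 406 of 36689 features passed. Leaving out an array it was 0 in each case, where 0 to 9 of 45616 features passed, against 201 in the main fit. The median difference ranged from -0.504 to -0.263 leaving out an array. Of the other pathway genes, 1 in place of 3 was higher in Wnt4hi with the processed signal and 0 to 2 leaving out an array (0 without Wnt4low replicate 1). Leaving out 1 array also took Tgfb1, Tgfb3, Bmp2, Bmp5, Tgfbr1, Acvr1b, Acvr1c, Acvr2a, Bmpr1a, Chrd, Smad1, Smad5, Smad6, Smurf2 and the dim Grem1 past the unadjusted threshold in at least 1 case. Bmpr1a passed it without Wnt4low replicate 1 (-0.38), with the sign opposite to the main fit (0.013). The cause of these changes was not tested. In the authors' table the column of Wnt4hi replicate 2 followed the scanner values of that array less closely (r = 0.868 across 36693 rows) than those of another array (0.886), so it may hold another sample.

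Whether the numbers 3 and 4 mark paired samples is not settled. The deviations from the population means correlated at -0.03 for both number 3 arrays and at 0.16 for both number 4 arrays. They correlated at 0.18 for Wnt4hi replicate 2 and Wnt4low replicate 1, which share no number. With 3 arrays per population the deviations are tied to each other, so these values cannot decide it. In a fit that took the number as a replicate block, 19 genes were higher in Wnt4low and 2 in Wnt4hi at an unadjusted p under 0.05, and 0 passed after adjustment, as did 0 of all features, with 2775 and 2082 features at an unadjusted p under 0.05. Under the block the unadjusted calls of Acvrl1 (-0.51), Ski (-0.54) and Smurf1 (-0.72) were lost, and Bmp5 (-1.13), Id2 (-0.90), Smad5 (-1.15) and Tgfb3 (-0.83) gained one. Grem1 also passed under the block, but 5 of its 6 arrays were dim, and neither a size nor a direction is read from it.

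Signs turned for 11 genes, none of which passed the unadjusted threshold in the main fit. Among the values with a turned sign, only that of Bmpr1a without Wnt4low replicate 1 (-0.38) passed it. With the replicate block the difference was -0.36 for Acvr1, -0.39 for Bmpr1a, 0.10 for Fstl3 and -0.30 for Id4. Bmpr1a was also -0.35 in the authors' table, -0.04 with cyclic loess, -0.30 with the mean of all probes and -0.02 with the processed signal. Leaving out an array, the values ranged from -0.22 to 0.02 for Bmp4, -0.01 to 0.36 for Bmp6, -0.01 to 0.23 for Bmp7, -0.20 to 0.82 for Acvr1, -0.38 to 0.25 for Bmpr1a, -0.20 to 0.39 for Acvr2b, -0.23 to 0.10 for Fstl3, -0.01 to 0.36 for Nog, -0.03 to 0.45 for Ltbp2, -0.53 to 0.34 for Smad2 and -0.18 to 0.50 for Id4. The direction of these small differences is not settled by 3 against 3 arrays, and no direction is read from the dim probe of Smad9.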
